A study of Homo sapiens with 32 samples.

Results

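SK-N-MC and A4573 are established Ewing sarcoma cell lines, and the libraries described here are their isogenic pairs with and without the cohesin subunit STAG2. They were chosen by their labels as the libraries of these lines, and make up 4 of the 32 samples of the series. SK-N-MC expresses STAG2 and was compared with its STAG2 KO, made by CRISPR/Cas9. A4573 does not express STAG2 according to the study's methods, so the library labelled WT is its STAG2-deficient arm, and the STAG2-expressing arm is a knock-in (KI) in which Cas9 and a single-stranded template restored the gene. All 4 libraries carry inducible Cas9 (iCas9) in their labels, and each arm is 1 library. The edited arms are described as clones, so within a line STAG2 status and clone cannot be told apart. According to the methods, SK-N-MC was grown in EMEM and A4573 in DMEM, so that line and medium cannot be told apart either. Polyadenylated RNA was sequenced without strand information and counted per gene symbol, with 29322507 to 32261248 counts per library. All differences below are without STAG2 minus with STAG2, on the log2 scale of CPM (a library's counts scaled to 1e6) with a prior count of 2, and a gene was measured in a pair at 10 or more counts over its libraries.

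Cohesin is a ring of SMC1A, SMC3 and RAD21 that holds sister chromatids together and extrudes chromatin loops, and it carries either STAG1 or STAG2 as a further subunit. Ewing sarcoma is driven by the fusion of EWSR1 with FLI1, whose product activates genes from GGAA repeats and represses others. Sprouty proteins, dual-specificity phosphatases such as DUSP6 and the ETS factors ETV4 and ETV5 are textbook outputs of ERK signalling, and several of them restrain it in turn.

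STAG2 mRNA was lower without STAG2 in each line, and in neither was it absent. STAG2 (ENSG00000101972, chromosome X, GRCh38) stood at 293 CPM in SK-N-MC and 184 CPM after knockout, a difference of −0.67. In A4573 it stood at 86.9 CPM in the KI and 34.1 in the STAG2-deficient library, a difference of −1.35. The libraries thus lie on the side their labels give, although reads of an edited transcript still count towards the gene and protein was not measured here. STAG1, the alternative subunit, was higher without STAG2 in each pair, at 69.4 and 105 CPM in SK-N-MC and at 73 and 135 CPM in A4573 (0.60 and 0.88). PDS5B, a cohesin-associated regulator, was at 105 and 144 CPM in SK-N-MC and at 81.3 and 137 CPM in A4573 (0.45 and 0.75). In A673 STAG2 KO cells PDS5B rose by 0.68 ± 0.10 (SE, 5 KO and 6 control libraries, edgeR adjusted p = 0.00123), and STAG1 differed by 0.40 ± 0.15 (adjusted p = 0.114). RAD21, SMC3, NIPBL, WAPL and PDS5A differed by −0.36 to 0.36 in either pair, and SMC1A by 0.29 and 0.82. The fusion partners EWSR1 and FLI1 differed by 0.11 and 0.23 in SK-N-MC and by 0.58 and −0.49 in A4573.

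The number of genes at least 2-fold apart was alike in the lines, and most of them were not shared. Of 14965 genes measured in both pairs, 1416 (9.46%) were at least 2-fold higher and 1391 (9.3%) at least 2-fold lower without STAG2 in SK-N-MC. In A4573, 1118 (7.47%) were higher and 1846 (12.3%) lower. The same way in both pairs, 405 genes (2.71%) were lower and 118 (0.789%) higher. In opposite directions, 311 (2.08%) were higher in SK-N-MC and lower in A4573, and 139 (0.929%) the reverse. Of the genes lower in SK-N-MC, 29.1% were also lower in A4573 and 9.99% were higher, beside 12.3% and 7.47% of all genes. Of the genes higher in SK-N-MC, 8.33% were also higher in A4573, close to the share of all genes, while 22% were lower. Genes past 2-fold in SK-N-MC in either direction were thus lower in A4573 in a larger share than all genes were. Over all 14965 genes the folds in the 2 lines were almost unrelated (Pearson's r = 0.024, Spearman's rho = 0.0075, across genes, which are not independent replicates). With 1 library per arm these folds have no replicate check. A fit that took the lines as replicates (edgeR quasi-likelihood test with the line as a block) called 0 of 15796 genes (0.0%) at an adjusted p under 0.05, where 633 (4.01%) had an unadjusted p under 0.05 and the lowest adjusted p was 0.66, for example in TUBB3 and TNC. That fit has 1 residual degree of freedom, and DESeq2 called 90 genes on the same counts, 73 of them at least 2-fold lower in both pairs and 10 higher. A joint fit with the A673 libraries called 41 (0.256%), 27 of them lower and 4 higher in both pairs. The 12 genes highest and the 12 lowest in both pairs, ranked by the smaller of their folds, are described next.

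**Figure D1:**
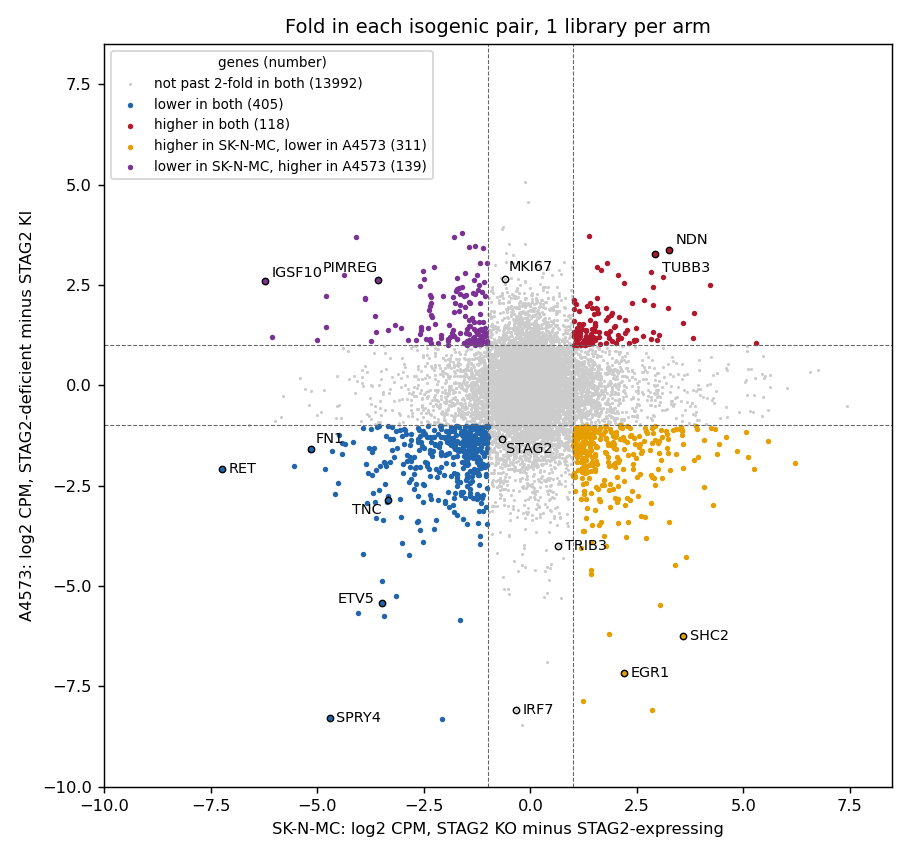
Each point is 1 of 14965 genes, with the log2 difference without minus with STAG2 in SK-N-MC (x axis) and in A4573 (y axis), and dashed lines mark 2-fold. Colours show the 405 genes lower in both, the 118 higher in both and the 450 in opposite directions, and circled genes are named in the text. The lower left quadrant holds more genes past the lines than the upper right one.

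The 12 genes lowest in both pairs included SPRY4 and ETV5, and DUSP6, another output of ERK signalling outside the 12, is given beside them. SPRY4, a Sprouty inhibitor of receptor tyrosine kinase signalling, was at 13.6 CPM in STAG2-expressing SK-N-MC, 0.458 CPM in the KO, and 30.4 CPM in A4573 KI and 0.0332 CPM in the STAG2-deficient cells. The last value is a single read beside 955, a 916-fold difference with a 95% counting interval of 164 to 36211. ETV5, an ETS transcription factor, was at 31 and 2.72 CPM in SK-N-MC and at 96.2 and 2.19 CPM in A4573 (−3.48 and −5.42). Without STAG2, SPRY4 was at the limit of measurement in A4573 and kept 14 reads in SK-N-MC, while ETV5 kept some reads in each pair. DUSP6, the phosphatase that inactivates ERK, was at 41.4 and 3.47 CPM in SK-N-MC and at 126 and 20.7 CPM in A4573 (−3.55 and −2.60).

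Others of the 12 lowest encode matrix, signalling and neural proteins. TNC, the matrix glycoprotein tenascin C, was at 308 CPM in SK-N-MC and 30.4 CPM in the KO, and at 89.8 CPM in A4573 KI and 12.2 CPM without STAG2 (−3.34 and −2.87). JAK3, a cytokine receptor kinase, was at 33.6 and 2.16 CPM in SK-N-MC and at 3.57 and 0.133 CPM in A4573 (−3.92 and −4.21). XKR4, an XK-related membrane protein, was at 14.9 and 0.982 CPM in SK-N-MC and at 93.5 and 12.1 CPM in A4573 (−3.84 and −2.94). For each of these the 2 libraries without STAG2 were below both libraries with it, by the smallest margin for XKR4. EGR4, an early growth response factor, was at 16 and 1.41 CPM in SK-N-MC and at 3.37 CPM in A4573 KI, with no read among 32261248 counts in the STAG2-deficient cells, at least 33.9-fold lower against a floor of 3 counts. PTGFR (a prostaglandin receptor), MGLL (monoglyceride lipase), ABCA4 (a retinoid transporter) and BRINP2 were lower by 2.91 to 3.93, some of them from few reads: BRINP2 had 21 counts in SK-N-MC and 0 after knockout, and ABCA4 24 and 1. KRTAP4-7 and KRTAP4-9, keratin-associated proteins of near-identical sequence between which reads can be split, were lower by 3.16 to 5.68.

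The 12 genes highest in both pairs were TUBB3, DPYSL5, MAP1A, GPRIN1, TMEM151B, NDN, IGF1, FLRT3, EFNB2, TGFB3, TMEM88 and CCK. TUBB3, neuronal beta-tubulin, was at 10.4 CPM in SK-N-MC and 79.7 CPM in the KO, and at 33.2 CPM in A4573 KI and 320 CPM without STAG2 (2.93 and 3.27). DPYSL5, a collapsin response mediator of growth cones, was at 15.2 and 219 CPM in SK-N-MC and at 53.6 and 187 CPM in A4573 (3.85 and 1.80). MAP1A, a neuronal microtubule-associated protein, was at 40.6 and 140 CPM in SK-N-MC and at 22.7 and 87 CPM in A4573 (1.79 and 1.94). All 3 were higher in the libraries without STAG2 than in any library with it. GPRIN1, which acts in neurite outgrowth, was at 6.46 and 34.3 CPM in SK-N-MC and at 13 and 53.8 CPM in A4573 (2.40 and 2.04). TMEM151B was at 2.25 and 16.5 CPM in SK-N-MC and at 0.923 and 6.87 CPM in A4573 (2.84 and 2.81). NDN, the imprinted gene of necdin, was at 6.01 and 58.2 CPM in SK-N-MC and at 0.0955 and 1.59 CPM in A4573, the last 2 being 3 and 48 reads, a 16.7-fold difference (counting interval 5.38 to 83.7). IGF1, the growth factor whose receptor Ewing sarcoma cells use, was at 46.4 and 175 CPM in SK-N-MC and at 5.25 and 18.6 CPM in A4573 (1.91 and 1.81). FLRT3, EFNB2 (the ligand ephrin-B2), TGFB3, TMEM88 and CCK (cholecystokinin) were higher by 1.70 to 3.05, and CCK had 3 reads in A4573 KI and 38 without STAG2. The genes next to the 2-fold limit were SH3BGRL3 just inside (1.02 and 1.001) and HSD17B8 just outside it (−1.69 and −0.999).

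**Figure D2:**
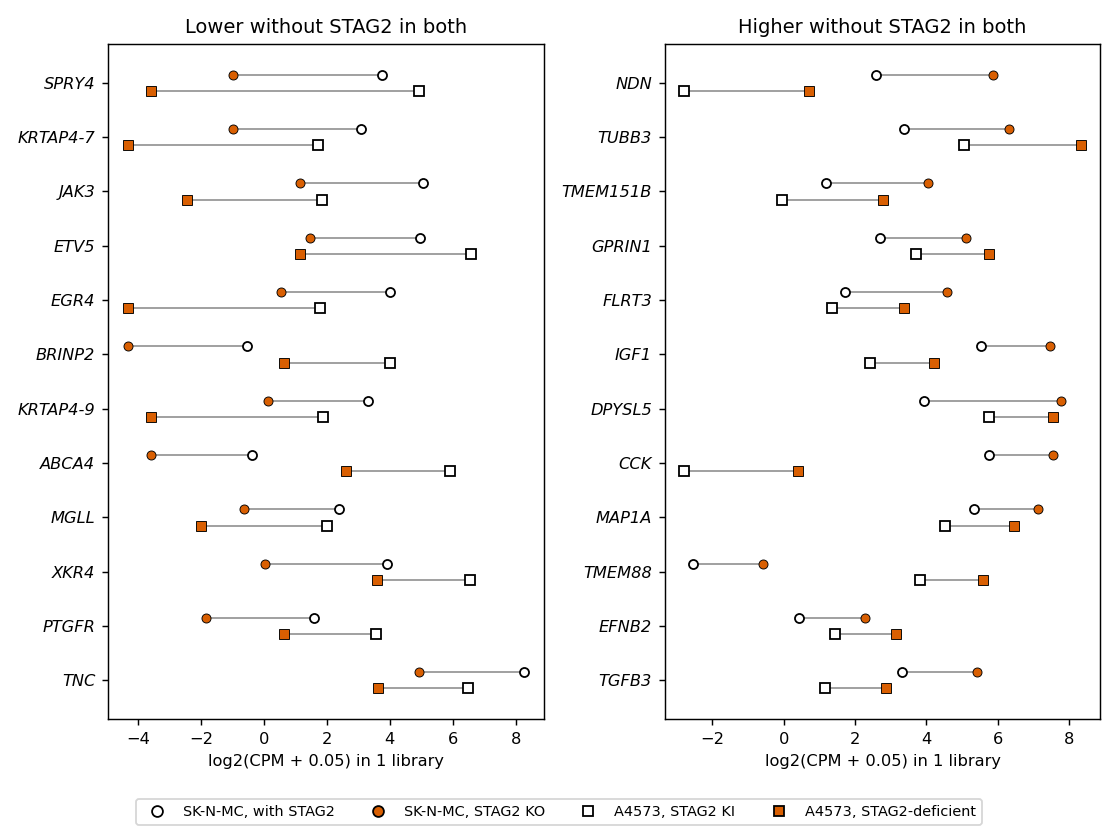
For the 12 genes lowest (left) and the 12 highest (right) without STAG2 in both pairs, each marker is 1 library, on a scale of log2(CPM + 0.05). Circles are SK-N-MC, squares A4573, open markers with STAG2 and filled markers without, and a line joins the libraries of a pair. In A4573 without STAG2, SPRY4 and KRTAP4-9 end at 1 read and KRTAP4-7 and EGR4 at 0 reads.

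In the fixed list of FGF ligands, FGF receptors and ERK feedback genes, members lay on both sides of 0 in SK-N-MC and mostly below it in A4573. Of 31 members measured in both pairs, 6 (19.4%) were at least 2-fold lower in both and 0 higher in both, beside 2.71% and 0.789% of all genes, with list medians of −0.62 in SK-N-MC and −0.96 in A4573 (all genes 0.0014 and 0.023). The 6 were SPRY4, ETV5, DUSP6, DUSP5, ETV4 and the intracellular FGF family member FGF14, of which DUSP5, ETV4 and FGF14 were named after their values were seen. DUSP5 was at 12.4 and 3.47 CPM in SK-N-MC and at 11 and 2.79 CPM in A4573. ETV4 was low throughout, at 0.273 and 0.0327 CPM in SK-N-MC and at 1.4 and 0.0996 CPM in A4573. In SK-N-MC 11 members were at least 2-fold higher and 9 lower, with ligands and feedback genes on either side. In A4573 0 members were higher and 15 lower. Over all genes 9.46% were higher and 9.3% lower in SK-N-MC, and 7.47% and 12.3% in A4573. EGR1, an immediate early target of ERK, did not follow SPRY4: it was at 16.3 and 74.9 CPM in SK-N-MC, and at 1204 CPM in A4573 KI and 8.37 CPM without STAG2. FOS, another immediate early gene, was at 16.5 and 39.1 CPM in SK-N-MC and at 423 and 1.76 CPM in A4573. The 2 immediate early genes were thus higher without STAG2 in SK-N-MC and far lower in A4573. The test of the difference between the lines, in a fit with 11 A673 libraries, gave an adjusted p of 0.153 for EGR1 and 0.242 for FOS.

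The same genes were measured in A673 cells. In A673 STAG2 KO, SPRY4 differed by −0.32 ± 0.17 (SE, 5 KO and 6 control libraries, edgeR adjusted p = 0.263), ETV5 by 0.11 ± 0.25 (adjusted p = 0.833) and DUSP6 by −0.44 ± 0.16 (adjusted p = 0.0931). After knockdown of STAG2 in A673 (3 siSTAG2 and 3 control libraries), SPRY4 differed by 0.17 ± 0.25 (limma adjusted p = 0.693), while ETV5 rose by 0.26 ± 0.08 (adjusted p = 0.0134) and DUSP6 fell by 0.24 ± 0.06 (adjusted p = 0.00446). DUSP5 and ETV4 rose after knockdown, by 0.45 (limma adjusted p = 0.00707) and 0.74 (adjusted p = 0.000205), and differed by 0.39 and 0.95 in A673 STAG2 KO (edgeR adjusted p = 0.193 and 0.161). The difference between the pairs and A673 STAG2 KO was tested in a joint edgeR fit, in which the libraries of the pairs, single per arm, are assumed to vary like those of A673. It called 78 of 16035 genes (0.486%), 26 higher (0.162%) and 52 lower (0.324%) in the pairs. SPRY4 was lower in the pairs by a further 6.16, ETV5 by 4.61 and DUSP6 by 2.66 (log2, adjusted p = 0.00955 for each), and the call held for all 3 without any 1 of the 11 A673 libraries. IGF1 was higher in the pairs than in A673 by 1.90 (adjusted p = 0.0201), and its A673 STAG2 KO value was −0.05 ± 0.17 (adjusted p = 0.891). After knockdown IGF1 fell by 0.65 ± 0.12 (limma adjusted p = 0.000398), and so did CCK, by 1.24 ± 0.15 (adjusted p = 5.93e-07), against their direction in the pairs. DCC, a netrin receptor at 16.4 and 2.55 CPM in SK-N-MC and 169 and 15.8 CPM in A4573, was lower by a further 2.64 (adjusted p = 0.0337), and that call was lost without any 1 of 5 A673 libraries (up to 0.0771).

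Promoters of genes lower in both pairs are shown because EWS::FLI1 and the ETV factors bind GGAA through an ETS domain. These are the 250 bases before the start of SPRY4 (GRCh38.p14, RefSeq, chr5:142324248-142324497, minus strand), DUSP6 (chr12:89352502-89352751, minus strand), EGR2 (chr10:62819168-62819417, minus strand) and TNC (chr9:115118158-115118407, minus strand), read 5′ to 3′. Capitals mark GGAA on either strand (GGAA or TTCC).
SPRY4: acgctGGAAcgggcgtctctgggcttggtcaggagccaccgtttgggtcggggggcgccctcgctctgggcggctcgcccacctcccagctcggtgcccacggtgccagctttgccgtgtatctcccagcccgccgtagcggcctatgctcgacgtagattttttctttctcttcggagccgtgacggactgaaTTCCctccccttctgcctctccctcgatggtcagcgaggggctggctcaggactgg
DUSP6: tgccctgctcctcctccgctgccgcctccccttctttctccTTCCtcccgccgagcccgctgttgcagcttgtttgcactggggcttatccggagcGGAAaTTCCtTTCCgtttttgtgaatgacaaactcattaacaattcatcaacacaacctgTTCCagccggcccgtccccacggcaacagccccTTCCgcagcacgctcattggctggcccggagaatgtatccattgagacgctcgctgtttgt
EGR2: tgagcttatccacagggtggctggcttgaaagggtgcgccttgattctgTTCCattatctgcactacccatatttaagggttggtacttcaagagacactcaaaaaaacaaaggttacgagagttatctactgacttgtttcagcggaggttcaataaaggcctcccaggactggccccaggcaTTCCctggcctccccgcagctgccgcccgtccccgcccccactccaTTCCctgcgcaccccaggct
TNC: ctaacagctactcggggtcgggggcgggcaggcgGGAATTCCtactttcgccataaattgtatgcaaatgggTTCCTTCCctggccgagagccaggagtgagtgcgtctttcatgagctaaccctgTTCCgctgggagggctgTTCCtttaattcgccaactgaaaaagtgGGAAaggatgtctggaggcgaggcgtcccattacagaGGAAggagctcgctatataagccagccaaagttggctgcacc

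The windows held 2 matches in SPRY4, 6 in DUSP6, 3 in EGR2 and 8 in TNC, beside a median of 3 over 27305 promoters, of which 92.8% held at least 1. Promoters on chromosome 8 were left out of these counts and of those that follow. TNC held the doubled motif GGAAGGAA, searched on both strands. Of the genes lower in both pairs, 279 had a RefSeq promoter among those counted, and 16 of these (5.73%) held GGAAGGAA. It was in 335 of 11382 genes measured in both pairs (2.94%) and in 2.99% of the 27305 promoters. Of the genes higher in both, 5 of 89 (5.62%) held it. The consensus ETS site CCGGAAGT was in 2 of the 279 (0.717%), in 1 of the 89 (1.12%) and in 6.84% of the measured genes. Another motif searched, TGACGTCA, was in 0.717%, 1.12% and 2.78% of the same sets. A share below that of the measured genes was thus not particular to the ETS site or to the lower genes. A match is a description of the letters and not of binding, and distal repeats lie outside these windows.

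Many genes lower in both pairs were also lower in A673 cells without STAG2, in libraries that share no sample with the pairs. In A673 STAG2 KO, 1687 of 13574 genes were called (12.4%), 905 higher (6.67%) and 782 lower (5.76%), with edgeR at an adjusted p under 0.05. Of the 274 genes lower in both pairs that were tested there, 77 (28.1%) fell and 11 (4.01%) rose, with a median of −0.57 beside 0.046 over the genes measured in both pairs. After knockdown, 2476 of 12060 genes were called (20.5%), 1151 higher (9.54%) and 1325 lower (11%). Of 182 such genes tested in the knockdown, 83 (45.6%) fell and 13 (7.14%) rose, with a median of −0.38 beside 0.0077. For the genes higher in both pairs, 9 of 72 (12.5%) rose and 2 fell in A673 STAG2 KO, and 11 of 49 (22.4%) rose and 6 fell after knockdown. The genes lower in SK-N-MC but not in A4573 fell in A673 STAG2 KO in 140 of 678 cases (20.6%). Those lower in A4573 but not in SK-N-MC fell there in 80 of 1029 (7.77%). After knockdown these were 164 of 466 (35.2%) and 159 of 676 (23.5%). Of genes lower in SK-N-MC and higher in A4573, 18 of 74 (24.3%) fell in A673 STAG2 KO. After knockdown 18 of 46 such genes (39.1%) fell. A fall in A673 was thus not particular to genes lower in both pairs. The 77 genes lower in both pairs that fell in A673 STAG2 KO became 145 without STAG2 KO clone 5 of experiment 2 (52.3% of those tested, beside 14.7% of all genes tested) and 57 to 76 without each of the other 10 libraries.

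In all, 52 genes were at least 2-fold lower in both pairs and called lower in A673 STAG2 KO and after knockdown, out of 177 lower in both pairs and tested in each (39 to 73 when an A673 STAG2 KO or control library is left out). Of all genes measured in both pairs, 10808 were tested in each. The share of these called lower in both A673 comparisons was not counted. It takes in at most the 688 genes called lower in A673 STAG2 KO among those measured in both pairs. For genes called higher in both A673 comparisons, that limit is 869. Both comparisons use A673 cells, so their calls are not independent of each other. Genes of matrix and adhesion were among them. FN1, fibronectin, was at 4020 CPM in SK-N-MC and 113 CPM in the KO, and at 2506 CPM in A4573 KI and 834 CPM without STAG2 (−5.15 and −1.59), and it fell by 2.27 ± 0.42 in A673 STAG2 KO (adjusted p = 0.00569). COL5A1, a fibrillar collagen, was at 672 and 131 CPM in SK-N-MC and at 195 and 60.4 CPM in A4573 (−2.35 and −1.69), and it fell by 1.31 ± 0.20 in A673 (adjusted p = 0.00171). TNC, described above, fell by 2.92 ± 0.24 in A673 STAG2 KO (adjusted p = 5.55e-05) and by 1.26 ± 0.13 after knockdown (limma adjusted p = 8.28e-08). ITGB2, an integrin of leukocytes, was at 6.25 and 1.7 CPM in SK-N-MC and at 678 and 320 CPM in A4573. Receptors and secreted signals were also found there. RET, a receptor tyrosine kinase, was at 19.4 CPM in SK-N-MC and 0.0655 CPM (2 reads) in the KO, a 296-fold difference (counting interval 81.6 to 2451), and at 20.8 and 4.85 CPM in A4573. ADGRG2, an adhesion G protein-coupled receptor, was at 117 and 14.7 CPM in SK-N-MC and at 33.7 and 7.34 CPM in A4573, and it fell by 5.95 ± 1.07 in A673 STAG2 KO (adjusted p = 0.0048). DKK2, a WNT modulator, was at 303 and 22.8 CPM in SK-N-MC and at 64.9 and 20.4 CPM in A4573. PCSK2, a prohormone convertase, was at 153 and 14.2 CPM in SK-N-MC and at 129 and 34 CPM in A4573. ACTA2 (smooth muscle actin), ADM (adrenomedullin), EDNRA (an endothelin receptor), SEMA3A, EGR2, EGR4 and XKR4 were others of the 52. Higher in all 4 comparisons were 3 genes, out of 49 higher in both pairs and tested in each. They were TMEM151B and, named after their values were seen, KIAA1549L and CHN1. CHN1 was at 30.2 and 65.2 CPM in SK-N-MC and at 30.6 and 63.4 CPM in A4573.

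**Figure D3:**
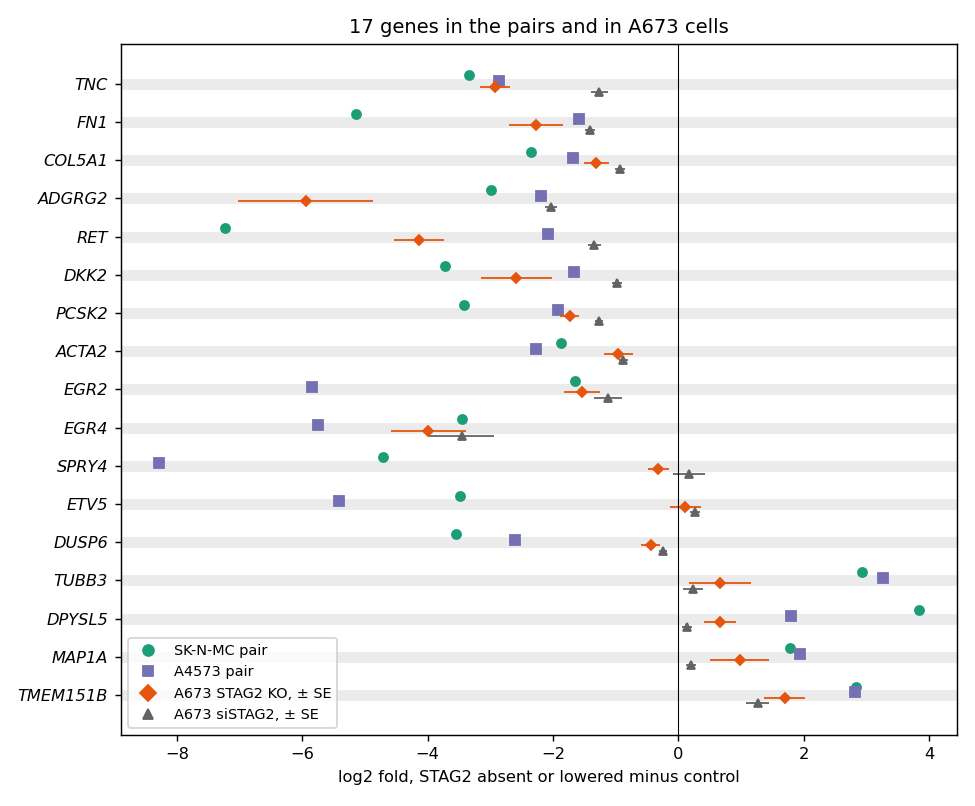
Log2 differences of 17 genes in the SK-N-MC pair (circles), the A4573 pair (squares), A673 STAG2 KO (diamonds) and A673 siSTAG2 (triangles), where error bars are SE of the fit and the pairs have none. TNC to EGR4 lie below 0 in all 4 comparisons and TMEM151B above 0 in all 4, while SPRY4, ETV5 and DUSP6 lie far below 0 in the pairs and within 0.44 of 0 in A673.

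RNF141, ADRA1D and NR2F1, which belong to the A673 experiments of the series, had the direction of A673 in both pairs. None passed the test of the difference between the lines in the joint edgeR fit (adjusted p = 0.949, 0.713 and 0.584). With 1 library per arm, this does not show that the sizes were alike. RNF141 was at 140 and 97.9 CPM in SK-N-MC and at 78.8 and 48.4 CPM in A4573 (−0.52 and −0.70). ADRA1D, an adrenergic receptor, differed by −0.58 in SK-N-MC and by −2.02 in A4573, where it was at 165 and 40.6 CPM. NR2F1, an orphan nuclear receptor, was at 4.28 and 32.4 CPM in SK-N-MC and at 53.6 and 72.4 CPM in A4573 (2.90 and 0.43). Of the study's signature, chosen in patients and A673 clones, 22 of 147 lower genes (15%) were at least 2-fold lower in both pairs and 0 higher. Of 57 higher genes 2 (3.51%) were higher in both and 0 lower, beside 2.71% lower and 0.789% higher over all genes. In SK-N-MC 54 of the lower genes were at least 2-fold lower and 7 higher, and in A4573 35 and 8. Of the higher genes, 15 were higher and 0 lower in SK-N-MC (median 0.42). In A4573 10 of them were higher and 8 lower (median 0.08).

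The lines lay apart in genes of proliferation and of stress. In RNA from bulk cultures, fewer cells of a kind and less RNA per cell cannot be told apart. Of 40 replication and mitosis genes, 38 were at least 2-fold higher without STAG2 in A4573 and 0 in SK-N-MC, with medians of 1.56 and −0.21. Over all genes 7.47% were higher in A4573 and 9.46% in SK-N-MC. MKI67, the antigen of cycling cells, was at 365 CPM in SK-N-MC and 241 CPM in the KO, but at 46.8 CPM in A4573 KI and 295 CPM without STAG2. RRM2, a ribonucleotide reductase subunit, was at 592 and 398 CPM in SK-N-MC and at 44.8 and 378 CPM in A4573. AURKB, the mitotic kinase, was at 70.1 and 47.4 CPM in SK-N-MC and at 67.4 and 361 CPM in A4573. For MKI67 and RRM2 the A4573 KI library was thus the low one of the 4. The fit with A673 called the difference between the lines for 153 of 16035 genes (0.954%), 101 higher (0.63%) and 52 lower (0.324%) in SK-N-MC, AURKB among them (−2.89, adjusted p = 0.00667), and MKI67 (−3.16, adjusted p = 0.0334, up to 0.0646 when an A673 library is left out). ESPL1, the separase that cleaves cohesin, differed by −0.71 in SK-N-MC, with 70.2 CPM in the KO, and was at 26.6 and 110 CPM in A4573 (2.05, adjusted p of the difference 0.0268). EZH2, the catalytic subunit of PRC2, was at 363 and 246 CPM in SK-N-MC and at 42.8 and 120 CPM in A4573 (adjusted p 0.0268), and SUZ12 at 146 and 123 CPM and at 62.1 and 68.5 CPM. The adjusted p without 1 A673 library was at most 0.0187 for AURKB, but up to 0.0553 for ESPL1 and 0.056 for EZH2. In A673 STAG2 KO 0 of the 40 replication and mitosis genes were called, with a median of −0.013, beside 12.4% of all genes tested.

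Targets of ATF4, the factor of the integrated stress response, went the other way in A4573. Of 28 measured, 27 were at least 2-fold lower without STAG2 in A4573 and 0 in SK-N-MC, where 4 were higher (medians −1.84 and 0.43). Over all genes 12.3% were lower in A4573, and 9.3% were lower and 9.46% higher in SK-N-MC. TRIB3, a pseudokinase, was at 17.1 and 27 CPM in SK-N-MC, and at 408 CPM in A4573 KI and 25.5 CPM without STAG2. CHAC1, which degrades glutathione, was at 3.73 and 11.7 CPM in SK-N-MC and at 240 and 32.6 CPM in A4573. GDF15, a stress cytokine, had no read in A4573 without STAG2 beside 705 in the KI, at least 225-fold lower against the floor of 3 counts, and 0.455 and 0.393 CPM in SK-N-MC. The KI library was again the one apart, with the highest level of the 4 in each. The difference between the lines did not pass the test for these genes (adjusted p = 0.603 for TRIB3, 0.468 for CHAC1 and 0.544 for GDF15). Of 28 ATF4 targets, 0 were called in A673 STAG2 KO, beside 12.4% of all genes tested there. The part of these sets in the other differences of the A4573 pair was not tested.

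Interferon-stimulated and antigen presentation genes were lower without STAG2 mainly in A4573. Of 51 interferon-stimulated genes, 32 were at least 2-fold lower and 0 higher in A4573. In SK-N-MC 7 were lower and 5 higher, and 3 were lower in both. The medians were −1.28 in A4573 and −0.14 in SK-N-MC. Over all genes 12.3% were lower and 7.47% higher in A4573, and 9.3% and 9.46% in SK-N-MC. In both pairs 2.71% of all genes were lower. IRF7, a regulator of interferon genes, was at 10.4 and 8.25 CPM in SK-N-MC and at 17.3 CPM in A4573 KI, with 0 reads beside 544 without STAG2, at least 174-fold lower. The difference between the lines passed the test for IRF7 (adjusted p = 0.00111). BST2, the restriction factor tetherin, was at 8.62 and 31.3 CPM in SK-N-MC and at 19.3 and 0.199 CPM in A4573 (adjusted p of the difference 0.452). Of 13 MHC class I pathway genes, 10 were at least 2-fold lower in A4573 and 1 in SK-N-MC (medians −1.26 and −0.10). HLA-B was at 27.5 and 45.3 CPM in SK-N-MC and at 219 and 82.5 CPM in A4573, and HLA genes share near-identical sequence, so that reads can be split between them. HLA-E and the peptide-trimming enzyme ERAP1 differed by −0.90 and −0.89 in SK-N-MC and by −1.26 and −1.27 in A4573. In A673 STAG2 KO 10 of 43 interferon-stimulated and 4 of 11 MHC class I genes fell, and 3 and 0 rose. Of all genes tested there 5.76% fell and 6.67% rose.

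**Figure D4:**
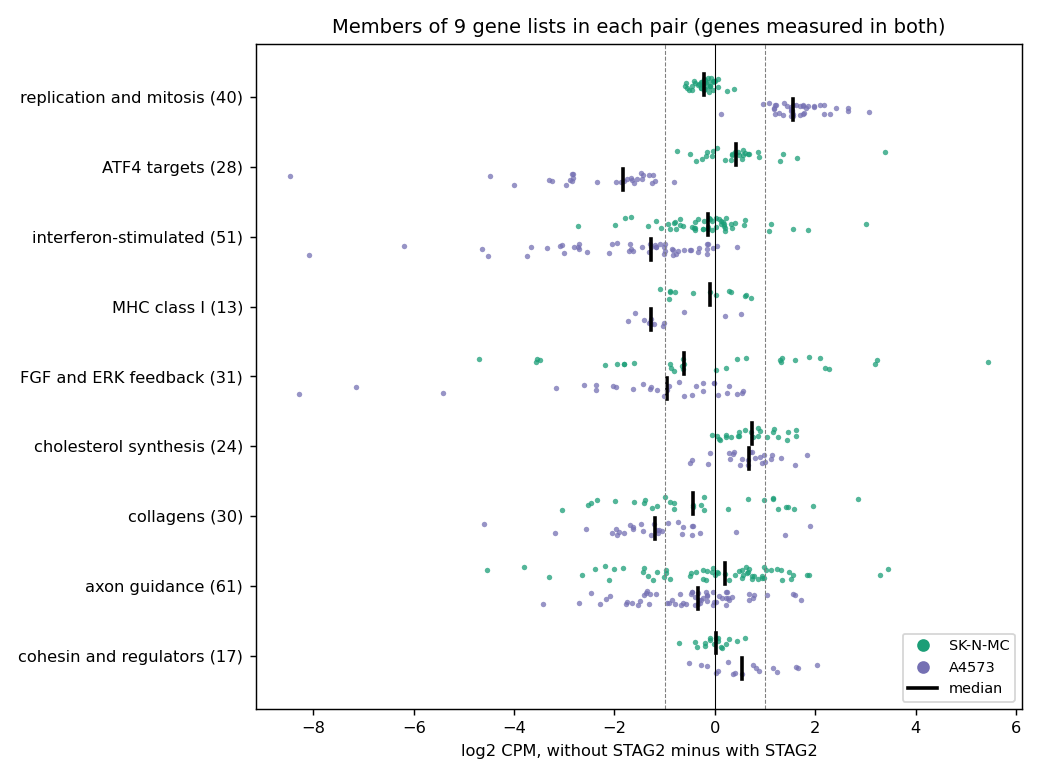
Each dot is a gene of 1 of 9 lists (rows, with the number measured in both pairs), placed by its log2 difference without minus with STAG2, in SK-N-MC (green) or A4573 (purple), with black bars at the medians and dashed lines at 2-fold. Replication and ATF4 genes lie on opposite sides in A4573, at medians of 1.56 and −1.84, and near 0 in SK-N-MC, at −0.21 and 0.43.

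Cholesterol synthesis genes were shifted upward in both lines. Their medians were 0.74 in SK-N-MC and 0.68 in A4573, with 8 and 6 of 24 genes at least 2-fold higher and 0 lower. Over all genes 9.46% and 7.47% were higher. Of the 24, 1 gene was at least 2-fold higher in both, beside 0.789% of all genes. That gene was FDFT1, squalene synthase, at 59.5 and 142 CPM in SK-N-MC and at 128 and 277 CPM in A4573 (1.25 and 1.12). HMGCS1, which makes HMG-CoA, was at 145 and 393 CPM in SK-N-MC and at 102 and 202 CPM in A4573 (1.44 and 0.99). MVK, mevalonate kinase, was at 14 and 43.1 CPM in SK-N-MC and at 9.23 and 17.8 CPM in A4573 (1.62 and 0.94). SREBF2, the factor that drives these enzymes, was higher without STAG2 in SK-N-MC and not in A4573, at 97.8 and 301 CPM and at 360 and 256 CPM. None of the 24 was called in A673 STAG2 KO (median −0.11), and after knockdown 7 fell and 0 rose (median −0.08). Of all genes tested 12.4% were called in A673 STAG2 KO, and after knockdown 11% fell and 9.54% rose.

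Collagen genes were lower in A4573 and mixed in SK-N-MC. Of 30, 19 were at least 2-fold lower and 2 higher in A4573, beside 10 lower and 8 higher in SK-N-MC. In both pairs 5 were lower and 2 higher. The medians were −1.19 in A4573 and −0.43 in SK-N-MC. Over all genes 12.3% were lower and 7.47% higher in A4573, and 9.3% and 9.46% in SK-N-MC. The same way in both pairs these shares were 2.71% and 0.789%. COL6A2 was at 30.4 and 117 CPM in SK-N-MC and at 170 and 28.5 CPM in A4573, and COL18A1 at 13.3 and 96.6 CPM and at 148 and 54.6 CPM. COL9A3 was at 11.8 and 31.7 CPM in SK-N-MC and at 6.3 and 0.199 CPM in A4573. Of 22 collagens tested in A673 STAG2 KO, 11 fell and 0 rose, beside 5.76% and 6.67% of all genes tested there.

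Axon guidance and WNT genes had members past 2-fold in both directions, and over all genes 2.71% were lower and 0.789% higher in both pairs. Of 61 axon guidance genes 8 (13.1%) were lower in both and 2 (3.28%) higher, the former including DCC and SEMA3D, a semaphorin at 11.3 and 0.753 CPM in SK-N-MC and at 44.9 and 9.89 CPM in A4573. UNC5C, a netrin receptor, was at 12.9 and 0.491 CPM in SK-N-MC and at 3.6 and 4.25 CPM in A4573. Of 37 WNT pathway genes 6 (16.2%) were lower in both and 2 (5.41%) higher, with medians of −0.49 and −0.29. LGR6, an R-spondin receptor, was at 6.98 and 2.23 CPM in SK-N-MC and at 1.85 and 0.232 CPM in A4573. DKK1, a WNT antagonist, was at 26 and 1.28 CPM in SK-N-MC and at 0.286 and 0.564 CPM in A4573. NOTUM, which inactivates WNT proteins, was at 6.86 and 3.8 CPM in SK-N-MC and at 4.68 and 0.531 CPM in A4573.

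Clustered protocadherins, cell surface proteins whose promoter choice uses CTCF and cohesin, had a median below 0 in SK-N-MC and above 0 in A4573, which was not tested over the list. Of 44 measured, 16 were lower and 3 higher in SK-N-MC, 2 lower and 5 higher in A4573, and 0 the same way in both (medians −0.53 and 0.15). Over all genes 2.71% were lower and 0.789% higher in both, and 0 of 44 is close to those shares. In SK-N-MC 9.3% of all genes were lower and 9.46% higher, and in A4573 12.3% and 7.47%. PCDHGB5 was at 6.49 and 0.36 CPM in SK-N-MC and at 2.8 and 3.68 CPM in A4573 (adjusted p of the difference 0.0219), and PCDHGC3 at 26.2 and 4.45 CPM and at 33.2 and 36.9 CPM (adjusted p 0.0377, up to 0.0677 without 1 A673 library). Transcripts of a protocadherin cluster share exons at their end, so that reads can be split between them. PEG3, an imprinted zinc finger gene, was at 8.16 and 0.131 CPM in SK-N-MC and at 17.3 and 19.6 CPM in A4573 (adjusted p 0.0334, up to 0.0578 without 1 A673 library), and fell in A673 STAG2 KO by 1.51 ± 0.26 (adjusted p = 0.00349).

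Targets of EWS::FLI1 were counted in 5 lists, between which no difference was tested. Of 143 genes with distal long GGAA repeats 14 (9.79%) were at least 2-fold lower in both and 0 higher in both, with medians of −0.23 and −0.36. Of 655 genes with distal short repeats 34 (5.19%) were lower and 8 (1.22%) higher in both, and of 529 with the fusion at their promoter 22 (4.16%) were lower and 3 (0.567%) higher, beside 2.71% and 0.789% of all genes. CEACAM6, a cell adhesion molecule of the long-repeat list, was at 8.83 and 0.327 CPM in SK-N-MC and at 1.91 and 0.299 CPM in A4573 (−4.51 and −2.44). MYEOV was at 110 and 15.4 CPM in SK-N-MC and at 1.75 CPM in A4573 KI with 1 read beside 55 without STAG2. Genes long described as activated by the fusion had medians of −0.04 in SK-N-MC and −0.76 in A4573, with 5 of 44 lower and 2 higher in both. Those described as repressed had medians of −0.76 and −0.42, with 5 of 32 lower and 1 higher in both. Ewing markers were present in all 4 libraries, with a summed level of 2110 to 3011 CPM and 1 of 10 at 3 counts or fewer. NR0B1 was at 33.7 and 86.1 CPM in SK-N-MC and at 441 and 267 CPM in A4573, PRKCB at 371 and 182 CPM and at 270 and 156 CPM, and BCL11B at 100 and 119 CPM and at 62.3 and 28 CPM.

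Some genes were far apart in opposite directions. IGSF10, an immunoglobulin superfamily member, was at 39.1 and 0.458 CPM in SK-N-MC and at 0.764 and 4.91 CPM in A4573 (adjusted p of the difference 0.000236), and fell by 5.03 ± 0.19 in A673 STAG2 KO (adjusted p = 2.38e-07). PIMREG, a mitotic regulator, was at 1.49 and 0.0655 CPM in SK-N-MC and at 36.7 and 227 CPM in A4573 (adjusted p 0.000236). CREB5, a CREB family factor, was at 0.212 and 2.55 CPM in SK-N-MC and at 66.1 and 6.21 CPM in A4573 (adjusted p 0.00747), and rose by 1.79 ± 0.24 in A673 STAG2 KO (adjusted p = 0.00093). IGSF10 and CREB5 thus had in A673 the direction of SK-N-MC. FLRT1, SHC2 (a signalling adaptor), NUPR1 (a stress factor) and OSTN (osteocrin) were higher by 3.05 to 3.65 in SK-N-MC and lower by 4.28 to 6.25 in A4573, and LINC02076 and MXRA8 were lower by 2.37 and 2.32 in SK-N-MC and higher by 2.24 and 2.20 in A4573. OLFM3 was lower by 4.37 in SK-N-MC, and in A4573 it had 0 reads in the KI and 11 without STAG2, at least 3.82-fold higher against the floor of 3 counts. None of these 7 passed the test of the difference (adjusted p 0.0867 to 0.534).

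Chromosome 14 stood apart in SK-N-MC. Its 454 genes measured in both pairs had a median of −0.63 there, and 84.4% were below 0, while the medians of the other 22 chromosomes were −0.22 to 0.26. In A4573 the median of chromosome 14 was 0.05, and the lowest was −0.24, on chromosome 8 (473 genes). Genes lower in both pairs were 17 of the 454 on chromosome 14 and 369 of 13740 placed on the other chromosomes, beside 2.71% of all genes. The rest of the genes lower in both pairs could not be placed. NID2, a basement membrane nidogen on chromosome 14 named after its values were seen, differed by −4.42 and −1.43. Genes lower in SK-N-MC were 95 of the 454 on chromosome 14 and 1185 of the 13740 on the others, beside 9.3% of all genes. Gene dose was not measured, and its part in these values was not tested.

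**Figure D5:**
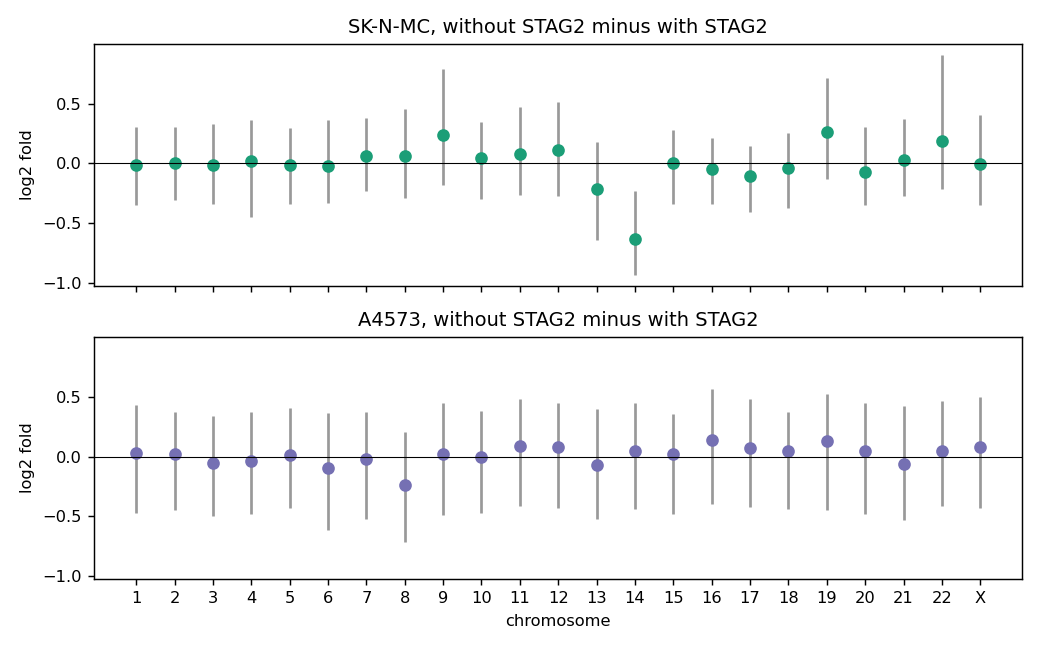
Points are the median log2 difference without minus with STAG2 over the genes of a chromosome measured in both pairs, and bars run from the first to the third quartile, in SK-N-MC (top) and A4573 (bottom). Chromosome 14 in SK-N-MC lies at −0.63, below every other chromosome of either pair.

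Summed markers of other cell types moved within the SK-N-MC pair. The sum of 12 immune markers was 6.80 CPM with STAG2 and 61.5 CPM without it in SK-N-MC, and 3.5 and 2.49 CPM in A4573, with 3 to 8 of them at 3 counts or fewer. The sum of 11 epithelial markers was 488 and 210 CPM in SK-N-MC and 11.2 and 3.95 CPM in A4573, with 1 to 8 of them at 3 counts or fewer. For 8 endothelial markers it was 51 and 25.1 CPM in SK-N-MC and 2.2 and 2.69 CPM in A4573, and for 10 myogenic markers 77.7 and 136 CPM and 17.9 and 11 CPM. Immune and myogenic sums were thus higher, and epithelial and endothelial sums lower, without STAG2 in SK-N-MC, and their part in the other differences was not tested. These sums do not hold for each member. In the SK-N-MC KO 6 immune and 7 myogenic markers were at 3 counts or fewer, beside 3 and 6 with STAG2. For epithelial markers these were 1 and 3, and for endothelial ones 2 and 1. The 3 immune markers measured in both pairs summed to 1.88 CPM with STAG2 and 2.65 CPM without it in SK-N-MC. Of the 2 such myogenic markers, 1 was higher and 1 lower there. The 12 fibroblast and mesenchymal markers summed to 780 CPM in SK-N-MC and 219 CPM after knockout. In A4573 they summed to 370 CPM in the KI and 207 CPM without STAG2. The 9 of them measured in both pairs summed to only 255 and 184 CPM in SK-N-MC. Of these 9, 4 were at least 2-fold lower and 0 higher in SK-N-MC. In A4573 1 was lower and 1 higher, and 0 were lower in both. The sums were thus lower without STAG2 in both lines, and their part in the matrix genes above was not tested.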

How the data were processed

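Per the labels and the study's methods, single-end reads were aligned to hg38 by the authors with TopHat2 (2.0.0), which ran on Bowtie (version 0.12.7), with SAMtools (release 0.1.16), and the program that counted them per gene is not given in the sources used here. The deposited counts are raw reads per gene symbol, and the pairs had 29322507 to 32261248 of them. The knockdown table holds signal values, which the authors made by dividing counts by 1 factor per library. In these, 100% of values gave whole reads (tolerance 0.01), or 6852340 to 8184632 per library, and edgeR on those reads, an alternative chosen after seeing the data, called 2503 genes. Of 28278 symbols, 25482 matched GENCODE 44 for chromosomes.

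Counts were scaled by TMM (edgeR 4.0.16, R 4.3.3). Folds per pair used a prior count of 2 for genes with 10 or more counts in the pair. Counting intervals (95%) and the floor of 3 counts per library cover counting error only. Counts were tested with edgeR's quasi-likelihood test and Benjamini-Hochberg adjustment over all genes: the pairs with cell line as a block, 11 A673 libraries, and both jointly, in which the pairs' single libraries are assumed to vary like the A673 ones. Since replicates are not stated to be separate cultures, p-values may measure technical spread. The A673 control libraries repeat an unedited clone and the parental line over both experiments, and the tests count such repeats as separate libraries. A STAG2 KO library of each experiment bears the same number in its column name, while their titles give different clone numbers. Whether a KO clone was repeated is thus not known. Knockdown values were tested with limma 3.58.1 on log2(value + 1), which understates folds of low genes, for genes reaching 10. DESeq2 1.42.0, other scalings, filters, priors and fold limits, and leaving out libraries were alternatives, and the tests were tested on simulated data. The STAG1 knockout table was not used.

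The named genes were the 12 highest and 12 lowest in both pairs with a mean of at least 2 CPM, members of fixed lists furthest from 0, genes the study names and the genes furthest apart in opposite directions. Members and lists were chosen with earlier results of these data known. The values of 1 gene that this rule names are not reported here.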

Additional observations from a re-analysis of the deposited data

Results flagged for a closer look

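The difference without minus with STAG2 was not alike in the lines for 13 named genes and, untested, for 2 lists. Each arm is 1 library, and the edited arm lacks STAG2 in SK-N-MC but expresses it in A4573. Clone and STAG2 status therefore cannot be told apart in these differences. The genes were tested in the joint edgeR fit (SK-N-MC minus A4573, log2, Benjamini-Hochberg adjusted over 16035 genes), where the single libraries of the pairs are assumed to vary like 11 A673 libraries.

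The difference held without any 1 A673 library for IGSF10 (−8.98, adjusted p = 0.000236), PIMREG (−6.92, adjusted p = 0.000236), IRF7 (11.2, adjusted p = 0.00111), AURKB (−2.89, adjusted p = 0.00667), CREB5 (7.05, adjusted p = 0.00747) and PCDHGB5 (−4.45, adjusted p = 0.0219). IRF7 had 0 reads in A4573 without STAG2, so its fitted value is no bound.

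For 7 genes the call depended on single A673 libraries. ESPL1 (−2.67, adjusted p = 0.0268) lost it without the second control library of experiment 2. EZH2 (−1.95, adjusted p = 0.0268) and SPRY4 (4.81, adjusted p = 0.0271) lost it without control clone libraries of experiments 1 and 2, with adjusted p up to 0.056 and 0.0553. PEG3 (−5.99, adjusted p = 0.0334), MKI67 (−3.16, adjusted p = 0.0334), PCDHGC3 (−2.62, adjusted p = 0.0377) and EGR2 (4.36, adjusted p = 0.0413) lost it without control or STAG2 KO libraries of either experiment, with adjusted p up to 0.0578, 0.0646, 0.0677 and 0.0736. SPRY4 and EGR2 were lower without STAG2 in both lines and differed in size.

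The medians of 2 lists lay on opposite sides of 0. The difference of medians, SK-N-MC minus A4573, was 2.26 for ATF4 targets and −1.77 for replication and mitosis genes, and it was not tested.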

How the results depend on the processing

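With 1 library per arm, the pairs rest on the test chosen: 0 genes were called by edgeR with the line as a block and 0 without the replicate block, but 90 by DESeq2 and 41 in the joint fit with A673, which shared 20. At 50 or more counts, 1189 genes were lower in SK-N-MC (1869 of all genes measured in that pair at 10 or more), 71 were higher and 259 lower in both pairs, and 275 opposite. At 1.5-fold 427 were higher and 935 lower in both and 1249 opposite, and at 3-fold 23, 122 and 119. At 50 or more counts the lists of FGF and ERK feedback (7 higher in SK-N-MC), interferon-stimulated genes (2 higher and 4 lower in SK-N-MC), collagens (1 higher in A4573), distal long GGAA targets (8 higher in A4573) and lower signature genes (4 higher in A4573) lost members, and with a prior count of 0.5 the higher signature had 1 gene lower in SK-N-MC. Fewer genes are measured at that count by construction.

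DESeq2 called 2621 genes in A673 STAG2 KO, 563 between the pairs and A673, and 702 between the lines, where no filter on low counts gave 94. Leaving out 1 library gave 1053 (control library 1 of experiment 2) to 4048 genes in A673 STAG2 KO, 37 (a control library of experiment 1) to 353 between pairs and A673, and 62 (control library 2 of experiment 2) to 675 between the lines. The highest count came each time without STAG2 KO clone 5 of experiment 2, and the cause was not tested. The knockdown gave 1750 to 2533. Its replicate numbers did not pair the libraries (correlations 0.0257, 0.0372 and 0.004), and with the replicate block 2881 genes were called. For A673 STAG2 KO, no paired analysis was possible because its groups share fewer than 2 replicate numbers. The balance of A673 STAG2 KO calls turned: 905 were higher and 782 lower, against 772 and 840 with no filter on low counts. Lower calls also exceeded higher ones without control library 1 (487 and 566), control library 2 (532 and 626), the parental library (665 and 763), clone 3 (585 and 641) or clone 2 (648 and 685) of experiment 2. Scaling by library size moved the A4573 median by −0.082.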
